A study of Mus musculus with 6 samples.

Results

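The genes described here encode the contractile, calcium-handling and metabolic proteins of the skeletal myofibre, the multinucleate muscle cell itself, measured in cells that were sorted away from the fibres. The set is a fixed list of 36 gene symbols, and each gene was represented by the brightest of its probes, judged by the mean over the 6 arrays of the deposited value table. A named probe existed for 34 of the 36 genes, out of 19321 genes with a named probe, and Tcap and Ampd1 were not analysed here. All 34 passed the filter on dim signals, which asked for 2 or more arrays above background and kept 18372 genes. By role, 14 members belong to the fast-fibre program, 7 to the slow-fibre program, 7 are structural proteins shared by both fibre kinds, and the others serve calcium release and energy supply.

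RNA came from hind limb muscles of C57BL/6 mice, either young (8 to 10 weeks) or aged (24 to 28 months), with no treatment or transgene given in the labels. From each age, 3 populations were sorted and used fresh: PDGFRa+ mesenchymal progenitors (the fibro-adipogenic cells of the muscle interstitium), satellite cells (the muscle stem cells), and a mixed population of CD31+ or CD45+ cells, which holds endothelial and hematopoietic cells. Cells from repeated sorts were pooled before RNA extraction, the RNA was amplified, and 1 one-colour array labelled with Cy5 was hybridised for each population and age, 6 in all. A population was therefore measured on 2 arrays that differ in age, and the p-values below measure the spread between these arrays of pooled cells, not between animals. The level given for a gene on an array is the authors' deposited intensity in array units, scaled so that the median of each array is 25. Levels of different genes are not compared, because each probe has its own brightness.

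Of 23473 probes, 88.43% to 92.32% were above background on an array. The sort markers followed the labels. Pdgfra read 5700.4 on the young and 4149 on the aged PDGFRa+ array and 7.6 to 60.6 on the other 4. Pax7, the transcription factor that defines satellite cells, read 1055 and 1361.6 on the satellite arrays and was below background on both PDGFRa+ arrays. Pecam1 (CD31) read 2464.8 and 2450.7 on the arrays of CD31+ or CD45+ cells and 13.2 to 50.1 elsewhere. Ptprc (CD45) read 251.7 and 414.6 there and 2.3 to 4.7 elsewhere. Judged by the scanner files the arrays fall into 2 sets, called scan sets below, which no label or header names: the signal of the second gain over the first had a slope of 0.465 to 0.466 on both PDGFRa+ arrays and the young satellite array, and 0.477 to 0.478 on both arrays of CD31+ or CD45+ cells and the aged satellite array. For the satellite pair, age and scan set cannot be told apart.

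In a myofibre, myosin heavy chains of the thick filament pull on actin of the thin filament when calcium, released from the sarcoplasmic reticulum through the ryanodine receptor, binds troponin C and moves tropomyosin off the actin surface. Fast fibres and slow fibres build this machine from parallel gene sets, so that most sarcomere proteins have a fast and a slow isoform encoded by different genes, and fast fibres prevail in the limb muscles of mice. Transcription of these genes begins as myoblasts leave the cell cycle and fuse, driven by E-box-binding factors of the MyoD family together with MEF2, SRF and TEAD factors.

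Selected members are introduced here with the 250 bases that precede their annotated start (RefSeq, GRCm38.p6), 5′ to 3′ along the strand of the gene. They do not form a ranking. Actn3, next after desmin in its log2 difference between satellite and PDGFRa+ cells, had no window. Capitals mark matches, on either strand, to the E-box written CANNTG, the TATA box written TATAAA, the TEAD element written CATTCC, the MEF2 site or the CArG box bound by SRF. Desmin has the largest log2 difference between populations in the tests below. Mybpc1 and Tnnt1 are slow-fibre genes whose age difference on the satellite arrays was unlike that of their fast partners. Mybpc2 is the fast partner of Mybpc1, and Myh4 encodes the fastest myosin heavy chain.
Des, chr1:75360042-75360291, plus strand: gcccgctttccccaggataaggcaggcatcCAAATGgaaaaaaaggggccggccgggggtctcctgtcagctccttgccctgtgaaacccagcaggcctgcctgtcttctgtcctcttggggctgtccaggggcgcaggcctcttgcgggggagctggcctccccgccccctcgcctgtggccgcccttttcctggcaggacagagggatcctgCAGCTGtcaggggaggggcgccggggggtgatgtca
Mybpc1, chr10:88605153-88605402, minus strand: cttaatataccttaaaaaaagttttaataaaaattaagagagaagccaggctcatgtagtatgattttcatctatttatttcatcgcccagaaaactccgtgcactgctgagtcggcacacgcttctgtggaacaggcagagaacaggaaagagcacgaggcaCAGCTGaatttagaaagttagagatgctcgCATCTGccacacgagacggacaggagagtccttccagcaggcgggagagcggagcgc
Tnnt1, chr7:4515976-4516225, minus strand: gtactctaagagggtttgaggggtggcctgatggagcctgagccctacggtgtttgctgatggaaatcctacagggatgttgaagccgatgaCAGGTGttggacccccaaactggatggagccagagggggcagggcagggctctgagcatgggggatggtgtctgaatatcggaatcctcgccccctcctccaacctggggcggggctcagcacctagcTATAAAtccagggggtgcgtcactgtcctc
Mybpc2, chr7:44524670-44524919, minus strand: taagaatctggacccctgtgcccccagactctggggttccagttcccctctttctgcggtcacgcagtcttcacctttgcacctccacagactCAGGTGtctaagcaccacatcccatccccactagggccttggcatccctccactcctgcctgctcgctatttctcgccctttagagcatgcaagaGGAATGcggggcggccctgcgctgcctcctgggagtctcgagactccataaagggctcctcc
Myh4, chr11:67237562-67237811, plus strand: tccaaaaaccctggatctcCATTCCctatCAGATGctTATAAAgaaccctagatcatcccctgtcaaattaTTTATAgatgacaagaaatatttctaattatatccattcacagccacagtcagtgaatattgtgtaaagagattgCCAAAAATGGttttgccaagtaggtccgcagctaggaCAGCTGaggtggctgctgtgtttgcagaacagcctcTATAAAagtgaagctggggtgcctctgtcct
Windows were available for 29 members (36 windows, since some genes have more than 1 annotated start), and the pattern of motifs was mixed. An E-box lay in 83.3% of the members' windows and in 66.2% of all 32851 windows of that length. CATTCC lay in 27.8% against 12.6%, TATAAA in 16.7% against 12.4%, and the MEF2 site in 2.78%, a single window of Ttn, against 0.508%. The CArG box lay in 13.9% of the members' windows, those of Acta1, Ldb3, Myh4 and Myl3, against 1.47% of all windows. The windows of Ldb3 overlap and hold the same CArG site, so by gene the box lay in 4 of 29 members. These are matches of letters and not measured sites. On chromosome 11 Myh2, Myh1 and Myh4 follow each other as neighbours, and 8 of the 36 members lie on chromosome 7, among them Tnnt1, Tnnt3, Tnni2 and Mybpc2. Probe sequences were not analysed here, so hybridisation of one myosin transcript to the probe of a close paralogue was not tested.

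The satellite arrays carried the highest signal of these genes. Summed over the 34 members, the deposited intensity was 5928 on the young and 10020 on the aged satellite array, 2594 and 2630 on the arrays of CD31+ or CD45+ cells, and 977 and 766 on the PDGFRa+ arrays. By the sum of both arrays, 28 of the 34 members ran in the order satellite, CD31+ or CD45+, PDGFRa+. Among them the arrays of neighbouring populations overlapped for Mybpc1, Casq1, Cacna1s and Ldb3. The share of all genes with this order was not computed. In 29 members both satellite arrays lay above all of the other 4 arrays, as they did for 23% of all genes tested. In bulk RNA, fewer cells of a type and less RNA per cell cannot be told apart.

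**Figure D1:**
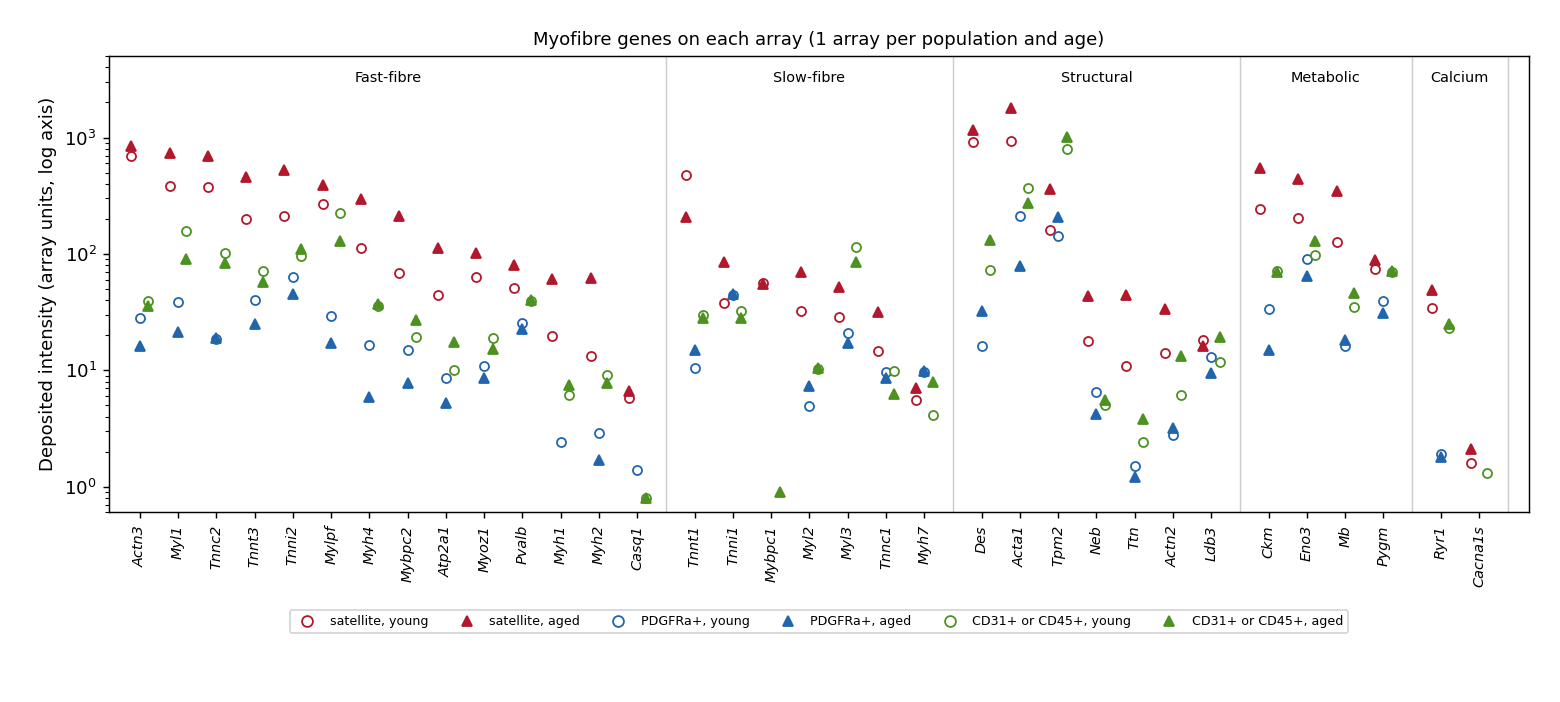
Deposited intensity of each member on each array (log axis, array units), grouped by role, with open circles for young and filled triangles for aged arrays and 1 colour per population. Values below background are not drawn, and genes are not to be compared with each other. Both satellite arrays lie above the other 4 for 29 of the 34 members, while Tpm2 and Myl3 are highest in CD31+ or CD45+ cells.

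Set against PDGFRa+ cells, 17 of the 34 members were higher in satellite cells and none was lower (limma, adjusted p under 0.05 and at least 2-fold), where 7.29% of all genes tested were called in either direction and 3.2% as higher. The median log2 difference of the members was 1.23, and that of all genes 0.01. By value 33 of 34 members were higher, Myh7 being the exception. The arrays did not overlap for 31 members, as for 33.6% of all genes, and 27 members had an unadjusted p under 0.05, as 38.2% of genes did. Among the fast-fibre members 9 of 14 were called, with a median difference of 1.96. Among the slow-fibre members 3 of 7 were called, with a median of 0.46, and of the structural members 2 of 7. Log2 differences were computed after an offset of 50 was added to the corrected signal, so they understate the differences of dim genes.

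Desmin (Des), the intermediate filament that ties Z-discs together and is also made by satellite cells and pericytes, had the largest log2 difference after the offset. It read 924 on the young and 1164.9 on the aged satellite array, 72.2 and 132.5 in CD31+ or CD45+ cells, and 16.1 and 32.3 in PDGFRa+ cells. No 2 populations overlapped, and each difference was called: 4.22 (SE 0.07, adjusted p = 0.00392) between satellite and PDGFRa+ cells, 3.05 (SE 0.07, adjusted p = 0.00102) between satellite and CD31+ or CD45+ cells, and -1.17 (SE 0.07, adjusted p = 0.00437) between PDGFRa+ and CD31+ or CD45+ cells, on the log2 scale. Actn3, the fast-fibre alpha-actinin of the Z-disc, read 693.4 and 846.7 in satellite cells, 39.5 and 35.7 in CD31+ or CD45+ cells and 28.2 and 16.1 in PDGFRa+ cells, and its log2 difference from PDGFRa+ cells was 3.86 (SE 0.19, adjusted p = 0.00632). Its relative Actn2, found in all fibres, read 14.2 and 33.8, 6.1 and 13.3, and 2.8 and 3.2 in the same order, a difference of 0.62 from PDGFRa+ cells (adjusted p = 0.0494) that stayed under 2-fold.

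Of the thick-filament genes, the fast myosin heavy chain Myh4 read 112.1 and 298.9 on the young and aged satellite arrays, 35.9 and 37.0 in CD31+ or CD45+ cells and 16.4 and 5.9 in PDGFRa+ cells. The satellite arrays lay clear of the others, and the difference from PDGFRa+ cells was called (2.32, SE 0.44, adjusted p = 0.0415). Its window above holds 3 TATAAA matches and the CArG box. Its chromosomal neighbours had the same order: Myh1 gave 19.6 and 60.7 in satellite cells and was below background on the aged PDGFRa+ array, and Myh2 gave 13.2 and 62.5 against 2.9 and 1.7. Neither was called (adjusted p = 0.0777 and 0.16). The slow heavy chain Myh7 stayed between 4.1 and 9.9 on all 6 arrays, with its highest readings, 9.6 and 9.9, in PDGFRa+ cells, and gave a log2 difference of -0.13 (SE 0.04, adjusted p = 0.121).

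The light chains, which clasp the neck of the myosin head, divided by isoform in one pair only. Myl1, the fast essential light chain, read 385.4 and 739.5 in satellite cells and 38.6 and 21.4 in PDGFRa+ cells (3.18, SE 0.45, adjusted p = 0.0239), and the fast regulatory chain Mylpf read 269.2 and 393.5 against 29.3 and 17.0 (2.68, SE 0.33, adjusted p = 0.0193). The slow regulatory chain Myl2 read 32.3 and 69.4 against 4.9 and 7.3, and was called by a narrow margin in size (1.04, SE 0.19, adjusted p = 0.0366). The slow essential chain Myl3 was not called (28.8 and 51.5 against 20.7 and 17.3, log2 difference 0.46, adjusted p = 0.216).

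Myosin-binding protein C, which braces the thick filament, was the one thick-filament pair whose slow gene passed and whose fast gene did not. Slow Mybpc1 read 56.0 and 55.3 on the satellite arrays, was below background on both PDGFRa+ arrays and on the young array of CD31+ or CD45+ cells, and read 0.9 on the aged one. Against the dimmest signal that counts as above background it was at least 2.56-fold higher in satellite than in PDGFRa+ cells (adjusted p = 0.00392). Fast Mybpc2 read 68.9 and 211.5 in satellite cells, 19.5 and 27.2 in CD31+ or CD45+ cells and 15.0 and 7.8 in PDGFRa+ cells, and its log2 difference of 1.83 (SE 0.43) from PDGFRa+ cells had an adjusted p of 0.0623. The satellite arrays of both genes lay above every other array. Neither window shown above holds TATAAA, and each holds an E-box.

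Thin-filament genes were led by Tnnc2, the fast calcium-binding troponin C, at 374.9 and 694.5 in satellite cells, 102.7 and 82.9 in CD31+ or CD45+ cells and 18.6 and 19.1 in PDGFRa+ cells (3.38, SE 0.32, adjusted p = 0.013, against PDGFRa+ cells). Skeletal actin, Acta1, read 935.1 and 1789.4, 365.3 and 273.7, and 212.1 and 79.4 in that order (3.01, SE 0.52, adjusted p = 0.0346). Tnnt1, the slow tropomyosin-binding troponin T, read 474.5 and 207.1 in satellite cells, 29.9 and 28.3 in CD31+ or CD45+ cells and 10.4 and 15.0 in PDGFRa+ cells. It was the slow-fibre member with the largest difference from PDGFRa+ cells (2.92, SE 0.34, adjusted p = 0.0171), and the only one on which the young satellite array lay more than 2-fold above the aged one. Its fast partner Tnnt3 read 198.4 and 455.7 in satellite cells and 40.1 and 25 in PDGFRa+ cells (2.37, SE 0.43, adjusted p = 0.0376).

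The inhibitory subunits differed by isoform. Fast Tnni2 read 210.9 and 521.5 on the satellite arrays and 62.7 and 45.5 on the PDGFRa+ arrays and was called (2.1, SE 0.41, adjusted p = 0.0427). For slow Tnni1 the satellite and PDGFRa+ arrays overlapped, since the young satellite array read 37.9, below both PDGFRa+ arrays at 43.9 and 45.0, and the aged one 85.9 (0.24, adjusted p = 0.577). Slow and cardiac Tnnc1 stayed between 6.2 and 14.5 on 5 arrays and read 31.7 on the aged satellite array (0.38, adjusted p = 0.208).

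Tropomyosin 2 (Tpm2), which is also made by smooth muscle, had another order. It read 800.6 and 1015.2 in CD31+ or CD45+ cells, 161.3 and 363.4 in satellite cells and 143.4 and 206.0 in PDGFRa+ cells. The CD31+ or CD45+ arrays stood apart from the other 4, and satellite and PDGFRa+ arrays overlapped (0.49, adjusted p = 0.178). Among the other structural members, titin (Ttn), the molecular spring of the sarcomere, read 10.8 and 44.5 in satellite cells and 1.2 to 3.8 elsewhere, and nebulin (Neb), the thin-filament ruler, read 17.9 and 43.4 against 4.2 to 6.5. Neither was called against PDGFRa+ cells (adjusted p = 0.126 and 0.0902). Ldb3, a Z-disc adaptor, read 18.1 and 16.2 in satellite cells and 12.9 and 9.5 in PDGFRa+ cells, and CD31+ or CD45+ cells, at 11.7 and 19.2, overlapped both (0.17, adjusted p = 0.264, against PDGFRa+ cells). Myoz1, the fast-fibre calsarcin, was called (63.9 and 101.9 against 10.9 and 8.6; 1.39, SE 0.19, adjusted p = 0.0218).

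Of the calcium-handling genes, the fast calcium pump Atp2a1 read 44.6 and 112.8 in satellite cells against 8.5 and 5.2 in PDGFRa+ cells (1.4, SE 0.28, adjusted p = 0.0471). Ryr1, the calcium release channel, read 34.2 and 48.6 against 1.9 and 1.8 (1.07, SE 0.09, adjusted p = 0.0111), with 23.1 and 24.8 in CD31+ or CD45+ cells in between. Parvalbumin (Pvalb), the calcium buffer of fast fibres, read 50.9 and 79.5 against 25.3 and 22.8, a log2 difference of 0.74 (adjusted p = 0.0388) under the 2-fold limit. The reticulum's calcium store Casq1 (0.8 to 6.7 where above background) and the voltage sensor Cacna1s (1.3 to 2.1) lay close to background throughout, and neither was called. Of the metabolic genes, muscle creatine kinase (Ckm) read 244.4 and 544.9 against 33.8 and 15.0 (2.83, SE 0.43, adjusted p = 0.0268) and myoglobin (Mb), the oxygen store, read 125.5 and 346.4 against 16.3 and 18.1 (2.27, SE 0.36, adjusted p = 0.0294). Muscle enolase (Eno3; 1.63, adjusted p = 0.051) and muscle glycogen phosphorylase (Pygm; 0.73, adjusted p = 0.0183) missed one of the thresholds each.

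The calls against PDGFRa+ cells depend on how the background was taken and on single arrays. With the local background of each spot in place of the blank spots, limma called 0 of 34 members and 0.376% of all genes, with 14 members at an unadjusted p under 0.05 and 33 of 34 higher by value. Without the young PDGFRa+ array it called 0 members and 0% of genes, with 24 members at an unadjusted p under 0.05, without the aged PDGFRa+ array 2 members (2.08% of genes), and without the young or the aged array of CD31+ or CD45+ cells 6 members (5.4% and 5.34%). Without the aged satellite array, which leaves 1 satellite array of the same scan set as both PDGFRa+ arrays, 14 members were called (7.04% of genes), all among the 17; the spread in that fit comes from the other populations and is assumed to hold for the lone array.

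Fast and slow partners were set side by side in 13 pairs, in which Myh7 served as the slow partner of 3 heavy chains and 3 slow partners (Atp2a2, Casq2 and Myoz2) are not members. Actn2, which is found in all fibres, was put in the place of the slow partner of Actn3. Only differences between arrays were compared, never the level of one probe with another. Between satellite and PDGFRa+ cells the fast partner had the larger log2 difference in 12 of 13 pairs, with a median excess of 1.61. The widest were Actn3 with Actn2 (3.86 against 0.62), Tnnc2 with Tnnc1 (3.38 against 0.38) and Myl1 with Myl3 (3.18 against 0.46). Troponin T was the exception, with 2.37 for fast Tnnt3 and 2.92 for slow Tnnt1. The offset of 50 compresses the differences of dim genes, so these sizes depend on how bright each partner was. Mybpc1, below background on both PDGFRa+ arrays, gave 1.4 against 1.83 for Mybpc2. On the deposited values the fast partner had the larger difference in 11 of 13 pairs, and Actn3 with Actn2 gave 5.1 against 2.53. No test was made over the pairs, which share arrays.

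**Figure D2:**
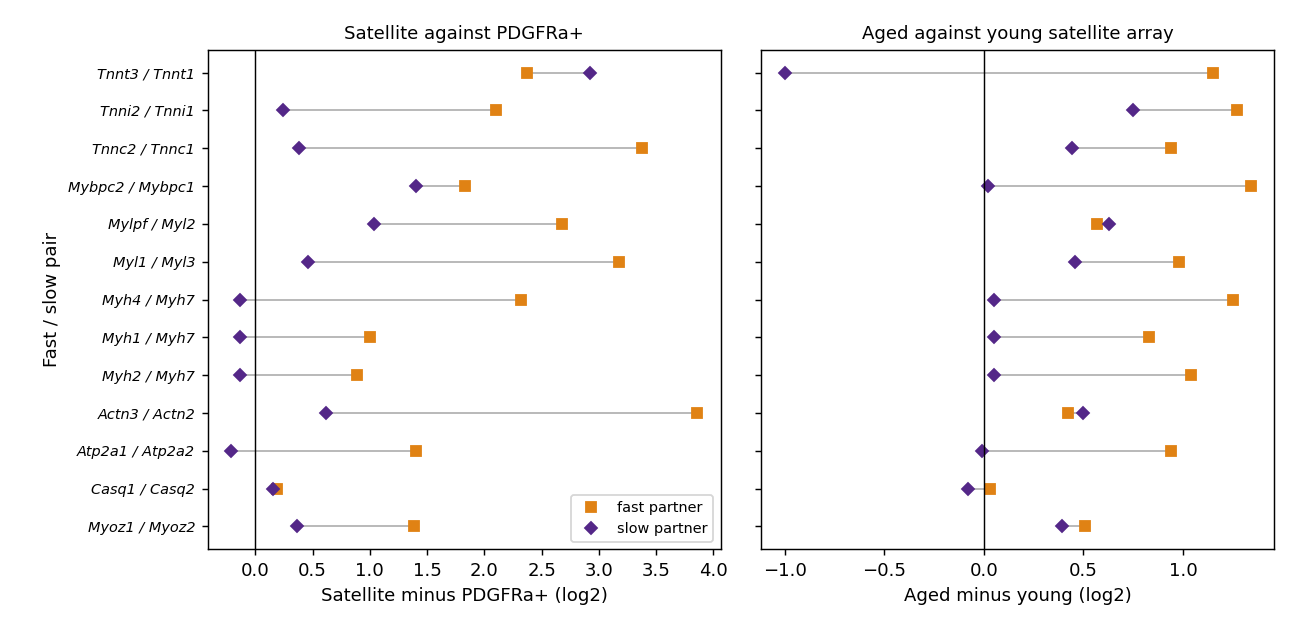
Log2 differences of the fast (squares) and slow (diamonds) partner of 13 isoform pairs, between satellite and PDGFRa+ cells (left, mean over both ages) and between the aged and the young satellite array (right, 1 array each, no test). The fast partner lies to the right in 12 of 13 pairs on the left panel and 11 of 13 on the right, and Tnnt1 lies at -1.0 on the right. Actn2, drawn as a slow partner, is found in all fibres.

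Against CD31+ or CD45+ cells, 10 members were higher in satellite cells and 1, Tpm2, was lower, where 5.12% of all genes were called higher and 6.56% lower. The median log2 difference was 0.89 for the members and 0.02 for all genes. Satellite arrays lay above without overlap for 30 members (41% of all genes), and 25 members had an unadjusted p under 0.05 (45.2%). The 10 were Actn3 (3.53, SE 0.19, adjusted p = 0.00292), Des, Tnnt1 (2.52, SE 0.34, adjusted p = 0.0149), Tnnc2 (2.16), Ckm (1.99), Myl1 (1.93), Tnnt3 (1.83), Mb (1.77), Mybpc1 (1.36) and Myoz1 (1.18). The fast partner had the larger difference in 11 of 13 pairs, with a median excess of 0.93. Acta1 (1.93, adjusted p = 0.0677), Myh4 (1.69, adjusted p = 0.0627) and Tnni2 (1.48, adjusted p = 0.07) missed the threshold, although their arrays did not overlap. Mylpf read 224.5 and 127.9 in CD31+ or CD45+ cells, close to its 269.2 on the young satellite array, and gave 0.87 (adjusted p = 0.142). With the local background 1 member, Actn3, was called (1.86% of all genes). Without the young satellite array, which leaves 1 satellite array of the same scan set as the CD31+ or CD45+ arrays and takes its spread from the other populations, 23 were (10.5%). Without the young or the aged array of CD31+ or CD45+ cells 3 and 4 members were called (9.24% and 9.63%), and without either PDGFRa+ array 5 (10.8%).

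Between PDGFRa+ and CD31+ or CD45+ cells the members were called about as often as all genes, at 11.8% against 10.1%. A smaller share of members than of all genes had an unadjusted p under 0.05. The called members encode a tropomyosin, 2 light chains and desmin. Compared with CD31+ or CD45+ cells, 4 members were lower in PDGFRa+ cells and none was higher, against 5.41% of all genes called lower, 4.7% called higher and 10.1% called in all. The PDGFRa+ arrays lay below without overlap for 27 members (30.4% of all genes), and 8 members had an unadjusted p under 0.05 (40.6%). The 4 called members were Tpm2 (-2.24, SE 0.2, adjusted p = 0.00759), Mylpf (-1.81, SE 0.33, adjusted p = 0.0338), Myl3 (-1.29, SE 0.21, adjusted p = 0.0246) and Des (-1.17). Myl3 read 114.2 and 85.6 in CD31+ or CD45+ cells and 20.7 and 17.3 in PDGFRa+ cells, and it was highest in the mixed population, above the satellite arrays. By value 29 of 34 members were lower in PDGFRa+ cells, with a median of -0.32, and the slow partner had the larger signed difference in 11 of 13 pairs. The populations lie in different scan sets; with the scan set as a block, which is estimated from the satellite pair alone, 24 of 34 members were higher in PDGFRa+ cells and only Tpm2 was called (4.54% of genes). Without the young or the aged PDGFRa+ array 1 member was called (6.4% and 7.12%), without the young or the aged array of CD31+ or CD45+ cells 2 (8.19% and 7.94%), and with the local background none (1.57%), 5 members having an unadjusted p under 0.05 in limma.

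Sums of smooth muscle, pericyte and blood markers also differed between the populations. The summed intensity of 12 pericyte and smooth muscle markers was 11711 and 14285 in CD31+ or CD45+ cells, 4986 and 8803 in satellite cells and 1307 and 1780 in PDGFRa+ cells, and all 12 were above background on every array. The order of the sums is that of Tpm2, but single markers differed. Acta2 alone made 6787.9 and 9442.2 in CD31+ or CD45+ cells and 3663.5 and 5553 in satellite cells. By value 8 of the 12 were higher and 4 lower in satellite than in PDGFRa+ cells, and Pdgfrb was highest in PDGFRa+ cells (483.5 and 464.1). Of 4 erythroid genes with a probe, the sum was 29910 and 20018 in CD31+ or CD45+ cells and 1290 to 3772 on the other 4 arrays. The 14 satellite cell and myoblast markers summed to 23978 and 17816 on the satellite arrays and to 751 to 1000 elsewhere, with Pax7, Cdh15 and Chrdl2 below background on the aged PDGFRa+ array and Pax7 on the young one. Their part in the result was not tested.

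**Figure D3:**
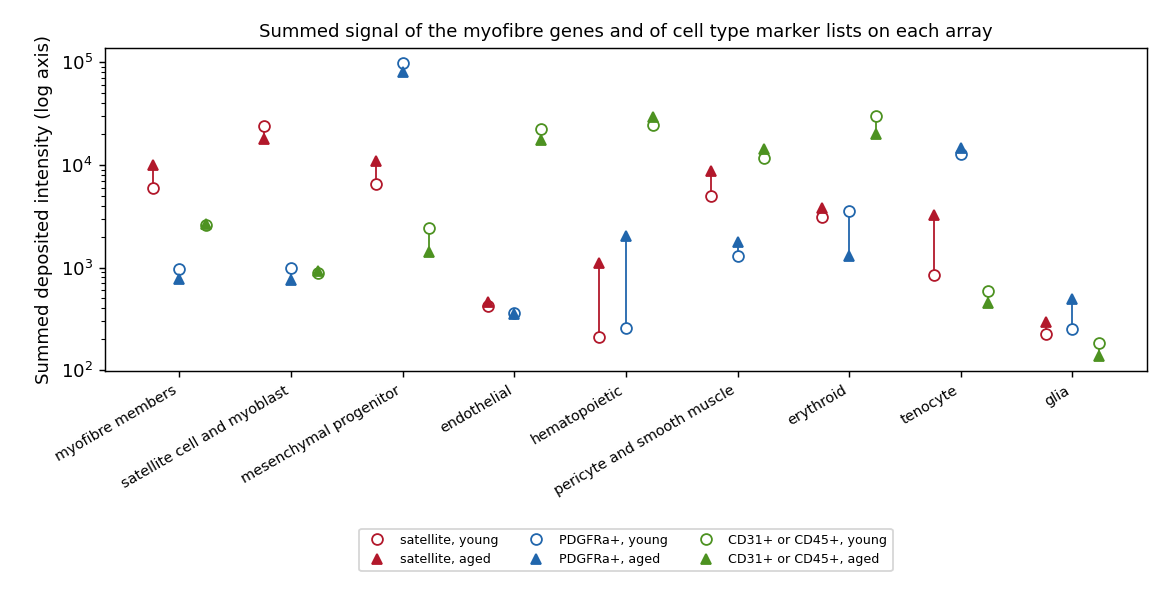
Summed deposited intensity (log axis, array units) of the 34 members and of 8 lists of cell type markers on each array, with open circles for young and filled triangles for aged arrays joined by a line within a population. On the satellite arrays the members go from 5928 to 10020 and the mesenchymal markers from 6525 to 10839. The satellite cell markers go from 23978 to 17816, of which Chodl makes 10010.3 and 5870.6.

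No member was called for the age difference common to the 3 populations (limma, 3 aged against 3 young arrays), nor was any of the 18372 genes. At an unadjusted p under 0.05 there were 2 members, Des (0.51, SE 0.06, adjusted p = 0.325) and Tpm2 (0.68, SE 0.16, adjusted p = 0.371), where 11% of all genes passed that limit. Both were higher on the aged array in each of the 3 populations: Des by 0.42 in satellite cells, 0.47 in PDGFRa+ cells and 0.65 in CD31+ or CD45+ cells, and Tpm2 by 1.09, 0.55 and 0.40. By value 30 of 34 members were higher in the aged arrays on average, but with the scan set as a block 15 were.

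Within a population 1 aged array was set against 1 young array, so there is no replicate and no test. In satellite cells 9 members were at least 2-fold higher on the aged array (1.13% of all genes) and 1 was at least 2-fold lower (0.0999%). By any amount 32 of 34 were higher (44% of all genes), and the median log2 difference was 0.61 for the members and -0.01 for all genes. Scaling to the 75th percentile in place of quantile normalisation moved the all-gene median to -0.18 and the members' to 0.57. With the local background the members' median was 0.31, with 26 of 34 higher, with an offset of 10 it was 0.96, and on the deposited values 1.01.

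The 9 were genes of the thick filament, the thin filament and energy supply. They were Mybpc2 (1.34), Mb (1.31), Tnni2 (1.27), Myh4 (1.25), Tnnt3 (1.15), Ckm (1.14), Tpm2 (1.09), Eno3 (1.07) and Myh2 (1.04), and Myl1 (0.98), Acta1 (0.96), Tnnc2 (0.94) and Atp2a1 (0.94) came next. All 14 fast-fibre members were higher, with a median of 0.94. As ratios of the deposited intensities, which carry no offset, the aged satellite array was 4.73 times the young for Myh2, 4.12 for Ttn, 3.1 for Myh1, 3.07 for Mybpc2 and 2.76 for Mb, and 17 of 34 members were at least 2-fold higher, where 4.96% of all genes were. Actn3 and Des, the members with the largest log2 differences from PDGFRa+ cells after the offset, had ratios of 1.22 and 1.26.

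Slow-fibre members went several ways on the aged satellite array. Tnnt1 was lower (474.5 to 207.1, a log2 difference of -1.0 and 2.29-fold by deposited intensity), the reverse of Tnnt3 (198.4 to 455.7). Mybpc1 was level (56.0 and 55.3) beside the increase of Mybpc2 (68.9 to 211.5), and Myh7 was near level (5.6 and 7.0, log2 difference 0.05). Tnni1 (37.9 to 85.9), Myl2 (32.3 to 69.4) and Tnnc1 (14.5 to 31.7) were each more than 2-fold higher by deposited intensity. Over the 13 pairs the fast partner had the larger age difference in 11 on the log2 scale with the offset, with a median excess of 0.53. The exceptions were Mylpf with Myl2 (0.57 and 0.63) and Actn3 with Actn2 (0.42 and 0.50). The count was 9 on the deposited values and 13 after scaling to the 75th percentile. By deposited intensity the aged array was 1.85 times the young for Tnnc2 and 2.19 times for its slow partner Tnnc1.

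**Figure D4:**
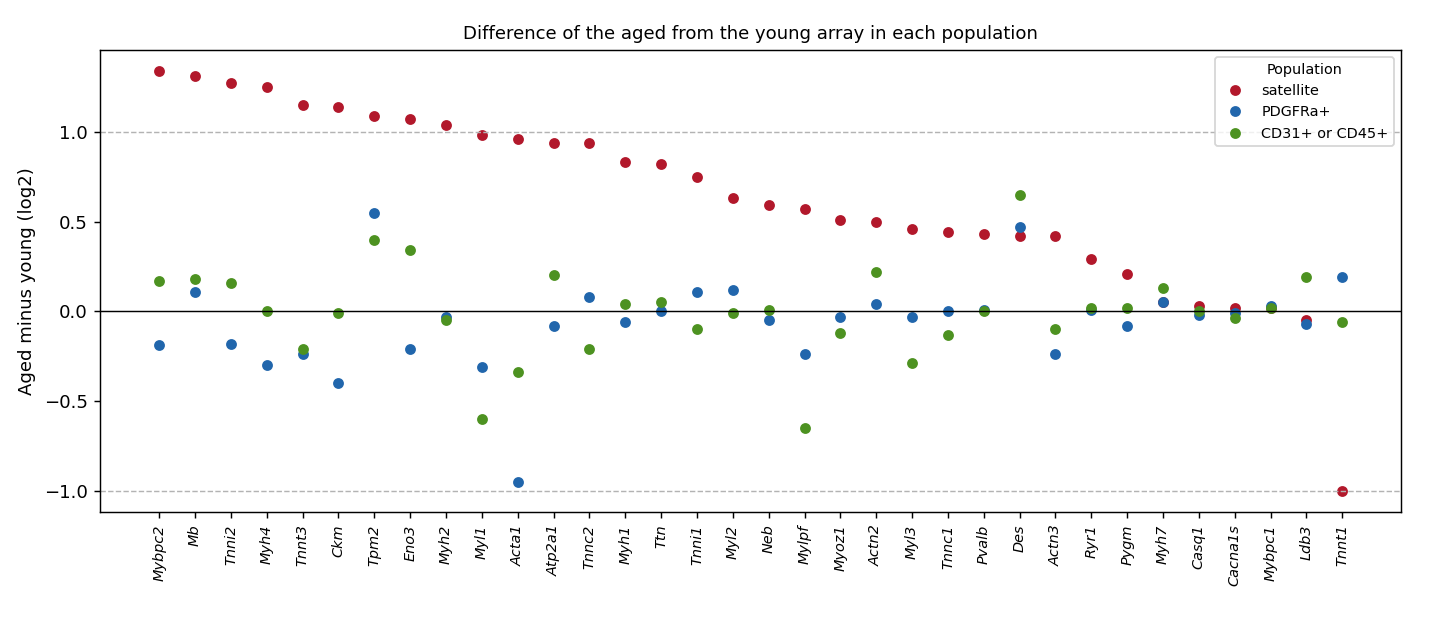
Log2 difference of the aged from the young array for each member in each population (1 array each, no test), ordered by the satellite value, with dashed lines at 2-fold. The satellite points lie above 0 for 32 of 34 members and reach 1.34, while Tnnt1 lies at -1.0; the PDGFRa+ and CD31+ or CD45+ points lie between -0.95 and 0.65.

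A term for the aged satellite array, added to the same fit after the data had been seen, set its age difference against the mean of the other 2 pairs. Its single residual degree of freedom comes from the disagreement of the PDGFRa+ and the CD31+ or CD45+ age pairs, since the satellite pair has no replicate. No gene was called by limma, and the lowest adjusted p of a member was 0.554. At an unadjusted p under 0.05 there were 25 members, 24 higher and 1 (Tnnt1, -1.07, SE 0.15, adjusted p = 0.554) lower, where 8.13% of all genes passed, 4.55% as higher. Mb (1.17, SE 0.08) and Myh2 (1.08, SE 0.07) had unadjusted p-values of 0.0016 and 0.00143, and Tnnt3 (1.38, SE 0.07) the lowest of the members at 0.000756. These genes were measured on the same arrays and are not independent of each other.

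Markers of other cells also stood higher on the aged satellite array. The 9 mesenchymal markers summed to 6525 on the young and 10839 on the aged array, and 6 of them were at least 2-fold higher (Pdgfra 7.6 to 60.6, Dcn 453.6 to 2544). Tenocyte markers went from 838 to 3229, pericyte and smooth muscle markers from 4986 to 8803 (Rgs5 48.3 to 276.2) and hematopoietic markers from 211 to 1108, of which Lyz2 made 965.3. Endothelial markers (426 and 465) and erythroid genes (3120 and 3772) stood nearly level. Satellite cell markers went from 23978 to 17816, with Pax7 at 1055 and 1361.6 and Myf5 at 2650.9 and 1637.7. Chodl made 10010.3 and 5870.6 of these sums. Of the 14 satellite cell markers 5 were higher and 9 lower on the aged array, with a median log2 difference of -0.09. The part of all these markers in the result was not tested.

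In PDGFRa+ cells no member was 2-fold apart with age on the log2 scale (0.263% of all genes were higher and 0.162% lower). Acta1 was nearest, at 212.1 on the young and 79.4 on the aged array (-0.95). Tpm2 (0.55) and Des (0.47) were higher on the aged array, and lower were Ckm (33.8 and 15.0, -0.40), Myl1 (38.6 and 21.4, -0.31) and Myh4 (16.4 and 5.9, -0.30). Of the 14 fast-fibre members 12 were lower, with a median of -0.13, and 5 of 6 slow-fibre members above background were higher, with a median of 0.08. The direction of the whole set depends on the scaling: 13 of 32 members were higher after quantile normalisation (49.2% of all genes; median -0.03), while 21 of 34 were higher after scaling to the 75th percentile (median 0.04), where 8 of the 14 fast-fibre members were lower. Of the 32 members above background in both pairs, 18 were lower here and higher on the aged satellite array (18.2% of all genes). Erythroid genes went from 3597 to 1290 and hematopoietic markers from 255 to 2040 between these arrays. Of the hematopoietic sums Lyz2 made 110.1 and 1904.6, and only 1 of 8 such markers above background was at least 2-fold higher. The part of these genes in the result was not tested.

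In CD31+ or CD45+ cells no member was 2-fold apart either (0.514% of all genes were higher and 0.0663% lower), and the members' median was 0. The largest differences were Mylpf (224.5 to 127.9, -0.65), Myl1 (158.3 to 90.1, -0.60) and Des (72.2 to 132.5, 0.65). Of the fast-fibre members 8 of 14 were lower, and the fast partner had the larger age difference in 4 of 13 pairs. Endothelial markers went from 22231 to 17615 and hematopoietic markers from 24754 to 29273 on these arrays.

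Other genes of the myofibre made a second list of 59 symbols, of which 53 were tested. Against PDGFRa+ cells 5 of 53 were higher in satellite cells and none lower, namely Sgca (alpha-sarcoglycan; 2.22, SE 0.06, adjusted p = 0.00392), Mylk2 (skeletal myosin light chain kinase; 1.37), Pgam2 (muscle phosphoglycerate mutase; 1.25), Jph2 (1.18) and Cox8b (1.09), and their median was 0.21. The 5 were 9.43% of the list, where 7.29% of all genes were called, 3.2% as higher. Against CD31+ or CD45+ cells 4 were higher (Cox8b, Sgca, Lmod2, Mylk2) and Dysf, the membrane repair protein dysferlin, was lower (-3.08, SE 0.12, adjusted p = 0.0018). Both directions together made 9.43% of the list, where 11.7% of all genes were called, 5.12% as higher and 6.56% as lower. Between the satellite arrays 0 of 53 were at least 2-fold higher on the aged one on the log2 scale (median 0.06), and 14 by deposited intensity, where 4.96% of all genes were. Lmod2, a leiomodin that lengthens thin filaments, was lower (215.5 to 71.7, log2 difference -1.22).

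Of 11 slow-fibre or cardiac isoforms outside the set, cardiac actin (Actc1), which is also expressed as myoblasts differentiate, was higher in satellite than in PDGFRa+ cells (1.97, SE 0.34, adjusted p = 0.0336). No other isoform of this list was called there, so 9.09% of the list was, where 7.29% of all genes were. Casq2 (-2.43, SE 0.07, adjusted p = 0.00135) and Tpm3 (-1.40, SE 0.18, adjusted p = 0.014) were lower in satellite than in CD31+ or CD45+ cells, as Tpm2 was. Actc1 was higher in satellite cells there too (1.85). In that comparison 27.3% of the list was called, where 11.7% of all genes were. Tnnt2, the cardiac and embryonic troponin T, read 12.8 on the young and 76.8 on the aged satellite array and 1.1 to 1.9 on the other 4, a log2 difference with age of 1.25 where Tnnt1 had -1.0. The 3 troponin T genes thus had different signs or sizes on the same pair of arrays, with Tnnt3 at 1.15.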

How the data were processed

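The authors deposited 1 scanner file per array and a table of linear intensity; per the file headers the scanner files hold the median pixel intensity at 635 nm of 27456 spots merged from 3 gains. Within 0.0559, each deposited intensity was the spot median minus the 5% trimmed mean of 2736 blank spots, multiplied by 1 factor per array, and was empty where the spot lay within 2 trimmed SD of that mean. Names came from the platform annotation, updated by Entrez identifier; 2783 of 23473 probes had none and were not used.

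For the tests, spot medians were corrected with the normexp method of limma 3.58.1 in R 4.3.3, with the blank spots as background and an offset of 50, quantile normalised and set on a log2 scale. Genes with several probes (1283) took the brightest. A linear model with population and age was fitted to all 6 arrays (lmFit, eBayes), which left 2 degrees of freedom for the spread, beside 1.5 from the prior, and a median residual SD of 0.061; the spread thus comes from age differences that the populations do not share. Tests were two-sided, Benjamini-Hochberg adjusted over 18372 genes, and a gene was called where the adjusted p was below 0.05 and the difference 2-fold or more. The precision is limited by the number of arrays. Members and gene lists were chosen with earlier results of these data known. Values on every array are given for fast and slow partners and for the extremes of each role; from the other lists called genes were named, the largest first, and Tnnt2, Lmod2 and the single markers were named after their values were seen. Scripts were tested on simulated data. Alternatives were other offsets, backgrounds, scalings, filters and probes, each array left out, no age term and the scan set as a block. Promoter windows came from RefSeq (GRCm38.p6), and motifs were searched on both strands with overlapping matches kept.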

Additional observations from a re-analysis of the deposited data

Results flagged for a closer look

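Of 32 members above background in both pairs, 18 were higher on the aged than on the young satellite array and lower on the aged than on the young PDGFRa+ array, where 18.2% of all genes had these signs. Each side is 1 array against 1, so this difference between the pairs was not tested gene by gene with replicates. The term for the aged satellite array sets it against both other pairs together, and limma called no gene for it, with 1494 of 18372 at an unadjusted p under 0.05. Of those 18, Myh4 (1.25 and -0.30), Ckm (1.14 and -0.40) and Acta1 (0.96 and -0.95) had some of the widest differences. After scaling to the 75th percentile the count was 12 of 34, and from the deposited intensities 22 of 34.

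Tnnt1 was the single member with the opposite signs, at -1.0 in the satellite pair and 0.19 in the PDGFRa+ pair on the log2 scale. Its value in the satellite pair lay between -1.19 and -0.82 under the alternatives tried, and the value in the PDGFRa+ pair between 0.03 and 0.49. The satellite value is tied to the scan set as given above.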

How the results depend on the processing

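Counts of called members moved with the background and the offset. With an offset of 10 the counts were 26 for satellite against PDGFRa+ cells (17 as reported), 22 for satellite against CD31+ or CD45+ cells (11) and 7 for PDGFRa+ against CD31+ or CD45+ cells (4), where 12%, 18.4% and 16% of all genes were called. With the local background they were 0, 1 and 0 (0.376%, 1.86% and 1.57%), and on the authors' deposited values they were 27, 20 and 8 (16.2%, 24.1% and 20.6%). Scaling to the 75th percentile gave 19 for satellite against CD31+ or CD45+ cells and 7 for PDGFRa+ against CD31+ or CD45+ cells; no background correction gave 21 for the former, and the scan set as a block gave 23 and 1. Leaving out each array in turn gave 0 to 23, 3 to 23 and 1 to 6 for the 3 comparisons. The age term called no member under any alternative.

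Members at least 2-fold apart with age numbered 10 in satellite cells (1.2% of all genes). There were 16 with an offset of 10, 6 with the local background and 18 on the deposited values (2.6%, 6.89% and 9.02% of all genes). In PDGFRa+ cells there were 0 (0.414%), and 1, 1 and 5 under these 3 settings (1.07%, 5.89% and 6.91%). No background correction gave 1 there (0.8%). In CD31+ or CD45+ cells there were 0 (0.572%), 1 with the local background (5.05%) and 2 on the deposited values (4.55%). Under the alternatives the fast partner had the larger difference in 10 to 13 of 13 pairs between satellite and PDGFRa+ cells. The range was also 10 to 13 between satellite and CD31+ or CD45+ cells, and 9 to 13 between the satellite arrays. With only genes above background on all arrays the counts were 9, 8 and 8 of 10 pairs. The other pair counts were not recomputed. Of 804 recomputed age values of members, only those of the 10 past 2-fold, all in satellite cells, were checked for reversal. Of these 1 reversed: Ckm in satellite cells was -0.92 with the local background, and the cause was not tested. Sign changes of smaller values were not counted. With the local background 26 of 34 members were higher on the aged satellite array, where 32 were as reported. No called difference between populations changed sign in 540 recomputed values per comparison, and 2, 7 and 51 uncalled ones did. No paired analysis was possible because the labels give no replicate numbers. Age is a term of the model, and without it 18, 13 and 3 members were called (7.1%, 11.6% and 9.88% of all genes). Dim members (Casq1, Cacna1s, Myh7) lie near background, where the offset compresses differences.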
